A study of Rattus norvegicus with 3 samples.

Results

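Pericytes and vascular smooth muscle cells, together the mural cells of blood vessels, were studied in single cell RNA sequencing data from the rat cochlea. A cell was taken as mural when Rgs5, Abcc9, Kcnj8, Notch3 and Myh11 together gave 3 or more UMIs (unique molecular identifiers, each standing for 1 captured RNA molecule) and at least 15 in every 10000 UMIs of the cell. The summed UMIs of the endothelial genes Cldn5, Cdh5, Flt1, Kdr and Egfl7 could not exceed 1. By this rule 661 of 30641 cells were mural, and they are called members in what follows. The measured values of those 10 genes chose the members, so the levels of these genes are given as a description.

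The study followed the basal membrane region of the cochlea of Sprague-Dawley rats at postnatal days 1, 7 and 14 (P1, P7 and P14). Rats of a stage were pooled, sex was given as female and/or male, and the animals were untreated. Each stage was 1 library of 10x Genomics 3′ chemistry, so a difference between stages and a difference between libraries cannot be told apart. No p-value is given for that reason, and every interval is an exact 95% counting interval that covers the sampling of molecules or cells only. The labels name the cells as greater epithelial ridge cells, a strip of columnar epithelium of the cochlear duct. The spiral ganglion, spiral ligament and stria vascularis were dissected away before dissociation, but glial, fibroblast, endothelial and mural genes were all found in the libraries, so they were treated as whole tissue.

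Pericytes lie inside the basement membrane of capillaries, and smooth muscle cells wrap arterioles and larger vessels. Both depend on PDGF-B from the endothelium, which they sense with the receptor Pdgfrb, and the Notch3 receptor keeps them in a mural state. Cochlear vessels supply a tissue with a high demand for ions and energy, and pericytes there are known to regulate capillary diameter and to take part in the barrier between blood and inner ear fluids.

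The members were 317 of 12779 cells at P1 (2.48%, interval 2.22 to 2.77), 279 of 12581 at P7 (2.22%, 1.97 to 2.49) and 65 of 5281 at P14 (1.23%, 0.951 to 1.57). The interval at P14 lay below those of P1 and P7. The P14 library was also shallower, and the endothelial limit removed more cells there. Members had a median of 5218, 5833 and 1319 UMIs at P1, P7 and P14, and all other cells had 6621.5, 6906 and 1620.5. Of the cells that met the mural requirement, 1, 10 and 78 exceeded the endothelial limit, or 0.314%, 3.46% and 54.5%. With that limit lifted, the share at P14 was 2.71%, and the order of the stages turned. Cells over the endothelial limit were counted among all other cells throughout. The 78 excluded P14 cells had both sets of genes, with Rgs5 at 1343 in every 1000000 UMIs (CPM), Pdgfrb at 565, Cldn5 at 1772 and Cdh5 at 505. Their median was 2830.5 UMIs, against 1166 in the P14 cells chosen by endothelial genes. Here and below, cells chosen by endothelial, fibroblast or macrophage genes could hold at most 1 UMI of the rule's mural genes together. Both medians were thus set in part by the choice of cells. Scrublet, a doublet caller, marked 2 of these 78 cells. In the members it marked 34 (10.7%), 36 (12.9%) and 1 (1.54%), against 4.82%, 6.44% and 2.52% of all cells that passed the filter, and none was removed.

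The label was checked with 13 mural genes that the rule did not use, among them Pdgfrb, Vtn, Higd1b, Ndufa4l2, Cspg4, Acta2 and Tagln. These gave 3 or more UMIs in 315 of 317 members at P1, in all 279 at P7 and in 57 of 65 at P14. Their median was 30, 42 and 11 UMIs per member. The share of other cells with 3 or more such UMIs is not given. Single genes of the 13 differed in the other cells at P7, where Pdgfrb had a UMI in 33.7%, Mcam in 26.5% and Higd1b in 0.496%. By this check in the members alone, the label held at P1 and P7, and at P14 it held for most of the members. The 8 P14 members below 3 UMIs, 6 of which had none, did not look mural: they held 27 UMIs of Abcc9, none of Rgs5, and Coch, a gene of spiral ligament and limbus fibrocytes, at 14105 CPM. Abcc9 made up more than 50% of the rule's UMIs in 5, 2 and 29 members at P1, P7 and P14. Smooth muscle markers were uneven. Acta2 and Tagln were found in some members of every stage, Myh11 in few, and Cnn1, a late smooth muscle gene, in none, where 3 UMIs would be 1.65, 1.64 and 28.2 CPM. Some results at P14 are therefore given beside their values in the 57 members with 3 or more of the UMIs from these 13 genes. The other P14 values are of all 65 members and include those 8 cells.

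Cells at the edges of the rule were few and differed in several genes. The 13 members with exactly 3 rule UMIs had Pdgfrb at 443 CPM and Higd1b at 55.4, and the 20 cells just outside with 2 had 716 and 239. The 37 members with 15 to 20 rule UMIs in every 10000 had Pdgfrb at 627 CPM, Vtn at 520 and Higd1b at 212, and the 35 cells with 10 to 15 had 556, 216 and 83.9. The 52 members with 1 endothelial UMI had Pdgfrb at 818 CPM, Higd1b at 381 and Coch at 149, and the 7 cells outside with 2 had 883, 410 and 6184. Mural genes were thus found on both sides of each limit. At the first of them Pdgfrb, Higd1b and Ndufa4l2 (388 CPM inside, 525 outside) were higher outside. Vtn (610 inside, 382 outside) and Acta2 (1552 and 811) were higher inside, and all these levels rest on 13 and 20 cells.

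Some facts of the libraries bear on the values. The 3 libraries held 114285848, 101264868 and 12616390 UMIs, and the members held 1820789, 1826533 and 106433 of them. At P14 a single UMI among the members was worth 9.40 CPM, against 0.549 at P1 and 0.547 at P7. Between 19 and 60 cell barcodes were shared by each pair of libraries, 2 of them with a member in 1 of the libraries, and no barcode was a member in both. For every comparison, genes were counted when both groups together reached 20 UMIs and at least 1 of them reached 50 CPM. A gene was called when its log2 ratio, with 10 CPM added to both levels, was 1 or more in size.

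Against all other cells, the members showed a vascular mural programme at every stage. Among the largest ratios outside the rule were those of Ndufa4l2, Higd1b and Cox4i2, which encode mitochondrial proteins, Acta2, the smooth muscle actin, Vtn, which encodes vitronectin, the GTPase gene Rem1, the forkhead gene Foxs1, and the nitric oxide receptor subunits Gucy1a1 and Gucy1b1. Of 3341 genes counted, 294 were higher in the members (8.8%) and 241 lower (7.21%). The list counts against other cells given below stand beside these shares. This contrast chose the members, and none of its ratios is offered as a test.

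Rgs5, a regulator of G protein signalling and a pericyte marker, was at 2984 CPM at P1 (2906 to 3065), 3504 at P7 (3419 to 3591) and 1719 at P14 (1479 to 1987), while all other cells had 8.43, 12.7 and 41.8. Abcc9, the sulphonylurea receptor subunit SUR2 of the ATP-sensitive potassium channel, was at 628, 735 and 2067 CPM, and its pore subunit Kcnj8 at 887, 930 and 489. At P14 Abcc9 was thus higher and Kcnj8 lower than at P7, and the other cells then had Abcc9 at 68.2 CPM and Kcnj8 at 8.41. Notch3 was sparse, with 46.1 CPM at P1, 46.0 at P7 and 103 at P14 (51.6 to 185), against 1.63, 1.50 and 1.65 in other cells. Myh11, the smooth muscle myosin heavy chain, rested on 42, 18 and 25 UMIs, or 23.1, 9.85 and 235 CPM.

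The member levels spread widely from cell to cell. Rgs5 had a median of 30.04 UMIs in every 10000 per cell at P1 with a highest value of 88.8, 35.5 with a highest of 105 at P7, and 18.1 with a highest of 110 at P14. Kcnj8 had medians of 7.10, 8.04 and 0, so most P14 members had no Kcnj8 UMI. After each cell was thinned to 1000 UMIs, Rgs5 was found in 290 of 317 members at P1 (91.5%), 267 of 275 at P7 (97.1%) and 27 of 42 at P14 (64.3%), and before thinning in 99.7%, 100% and 80.0%. It was found in none of 87, 102 and 86 cells chosen by the macrophage genes C1qa, C1qb, C1qc and Csf1r, which allows shares of up to 3.45%, 2.94% and 3.49%, and those cells had a median of 7735.5, 6464.5 and 1650 UMIs. Rgs5 was one of the genes that chose the members, so its share in them was fixed in part by the rule. The macrophage-gene cells were limited in the same genes, as given above, so their share was fixed in part as well. The 23 P14 members with fewer than 1000 UMIs could not enter this count.

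Pericyte markers outside the rule were found at every stage. Pdgfrb was at 860 CPM at P1 (818 to 904), 1050 at P7 (1003 to 1098) and 1381 at P14 (1167 to 1623). Other cells had 52.4, 77.6 and 79.9 CPM, and the cells chosen by endothelial genes 4.26, 20.9 and 23.9. The cells chosen by Dcn, Lum and Pdgfra had 39.8, 63.5 and 99.7, so Pdgfrb was low but present in fibroblasts and lowest in the endothelium. Vtn was at 563, 981 and 1071 CPM against 3.68, 13.1 and 56.5 in other cells. Higd1b was at 604, 580 and 667 CPM against 0.541, 1.21 and 23.1. Both genes were thus at higher levels in the other cells at P14 than at P1 and P7, while the members stayed above them at each stage. The other cells at P14 included the 78 cells that met the mural requirement but exceeded the endothelial limit. The part of those cells in the P14 levels of the other cells was not tested. Ndufa4l2, which encodes a mitochondrial protein, was at 1031 CPM at P1 (985 to 1079), 1453 at P7 (1398 to 1509) and 592 at P14 (455 to 757). Cox4i2, the oxygen-sensitive isoform of cytochrome oxidase subunit 4, was at 849, 905 and 742 CPM. Foxs1, a forkhead factor of perivascular cells, was at 168 CPM at P1 (149 to 187), 378 at P7 (351 to 408) and 207 at P14 (130 to 313), so P7 was its highest stage with intervals clear of both neighbours.

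Of the mural identity list, 17 genes were counted, 13 were higher in the members and none lower, with a median log2 ratio of 3.36 beside 0.06 over all genes counted. The lists of markers for other cell types gave the opposite sign over the 3 libraries summed. All 7 counted glial genes, all 6 neuronal genes, all 6 cartilage and bone genes and all 4 macrophage genes were lower in the members. So were 12 of 14 fibroblast genes, 4 of 5 genes of the cochlear epithelium and hair cells, both counted erythroid genes and S100a9, the neutrophil gene counted. The P14 members added few UMIs to these sums. At P14 alone the summed glial genes were not lower, at 9856 CPM in the members and 9640 in the other cells. The sums of the other lists named here were lower in the members at P14 as well. Genes of melanocytes, lymphocytes and skeletal muscle were too low to be counted in either group. Of the endothelial list, Esam, an adhesion molecule of vessel walls, was higher and Emcn lower.

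**Figure D1:**
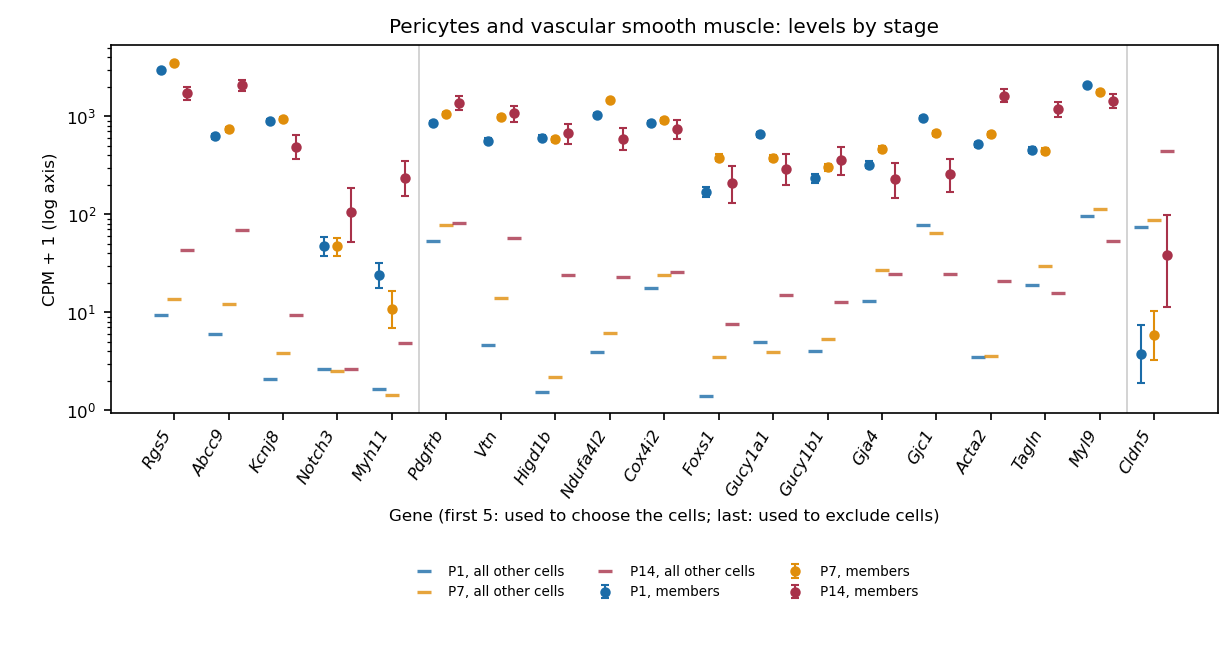
Levels of 19 genes in the members (points, with exact 95% counting intervals) and in all other cells (dashes) at P1, P7 and P14, as CPM + 1 on a log axis. The first 5 genes chose the cells and Cldn5 excluded cells, the members lie above the other cells for the other 18 genes, and the P14 intervals are the widest.

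The PDGF axis was split between members and endothelium. Pdgfb, the ligand, was at 50.6, 103 and 282 CPM in the cells chosen by endothelial genes and at 7.14, 20.8 and 28.2 in the members. Pdgfra, the receptor of fibroblasts, was at 8.24 and 19.2 CPM in the members at P1 and P7 and at 254 at P14. Other fibroblast genes were higher at P14 as well, and their values are given with that comparison. Of 5 genes counted in the PDGF list, Pdgfrb, Nrp1 and S1pr3 were higher in the members than in other cells and Pdgfra was lower.

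In the Notch pathway, 6 genes were counted and 4 were higher in the members, beside 8.8% of all genes counted. These were the target genes Hes1, Hey2, Heyl and Nrarp. Heyl, a target linked to Notch3, was at 176 CPM at P1 (157 to 196), 320 at P7 (294 to 347) and 188 at P14 (115 to 290), against 2.70, 17.0 and 10.8 in other cells. Hey2 was at 131, 116 and 160 CPM with overlapping intervals. These targets were therefore present in the members at all stages. The ligand Jag1 was at 19.2 CPM at P1 (13.4 to 26.7), 58.6 at P7 (48.0 to 70.8) and 676 at P14 (529 to 852). In the cells chosen by endothelial genes Jag1 was at 28.0, 51.5 and 592 CPM, so the level was higher at each later stage in both, and all other cells had 18.9, 44.9 and 149. Dll4, an endothelial Notch ligand, was at 24.4, 52.0 and 77.5 CPM in those endothelial cells.

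In the VEGF and angiopoietin list 2 genes were counted against other cells, and Cxcl12 was lower. Angpt2, a ligand that destabilises vessels, was at 46.7, 40.5 and 47.0 CPM in the members against 1.69, 3.89 and 4.42 in other cells. Angpt1, the ligand usually ascribed to pericytes, was at 6.59, 7.66 and 9.40 CPM, close to the level of 1 UMI at P14. Their receptor Tek was at 142, 160 and 506 CPM in the endothelial cells and at 0, 2.19 and 28.2 in the members. Tgfb1 was at 93.9, 125 and 28.2 CPM in the members, the last from 3 UMIs, which made P14 4.45-fold lower than P7 with an interval of 1.50 to 21.7. Eng, a TGF-beta coreceptor, was at 122, 149 and 188 CPM. Both were called higher in the members than in other cells, and the other 7 of 9 genes counted in the TGF-beta and BMP list were not called.

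Among channels and gap junctions, 5 of 10 genes counted were higher in the members, beside 8.8% of all genes counted. Ano1, Atp1b2, Gja4 and Gjc1 were among the 5. Gjc1, the connexin 45 gene, was at 955 CPM at P1 (910 to 1000), 672 at P7 and 254 at P14 (167 to 369), and its level was lower at each later stage. Gja4, the connexin 37 gene, was at 320, 466 and 225 CPM, and Gja5, the connexin 40 gene of arteries, had no UMI in the members. Ano1, the calcium-activated chloride channel of pericytes, was at 39.5, 88.1 and 75.2 CPM. Its level in the other cells was 4.74, 10.6 and 6.94 CPM.

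Of 12 vasoactive receptors and cyclic nucleotide enzymes counted, 9 were higher in the members and 3 lower, beside 8.8% and 7.21% of all genes counted. Gucy1a1 was at 655 CPM at P1 (618 to 693), 374 at P7 (347 to 404) and 291 at P14 (198 to 413), while its partner subunit Gucy1b1 was at 231, 301 and 357. Gucy1a1 was thus lower and Gucy1b1 higher at P7 than at P1, with intervals apart, and neither passed the fold. Pde5a, which degrades the cyclic GMP made by that receptor, was at 202, 98.0 and 65.8 CPM. Ednra, the endothelin A receptor, was at 170, 258 and 197 CPM, and Ednrb was lower than in other cells, at 25.3, 41.6 and 28.2 against 158, 249 and 45.0. The endothelin receptors were thus divided, with Ednra in the members and Ednrb mostly elsewhere. Adora2a, an adenosine receptor, was at 92.3, 97.5 and 75.2 CPM. The receptor parts Ramp1 and Calcrl for calcitonin gene-related peptide were at 188, 258 and 103, and at 47.8, 76.6 and 150 CPM. Ramp2 and Ramp3 were lower than in other cells.

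**Figure D2:**
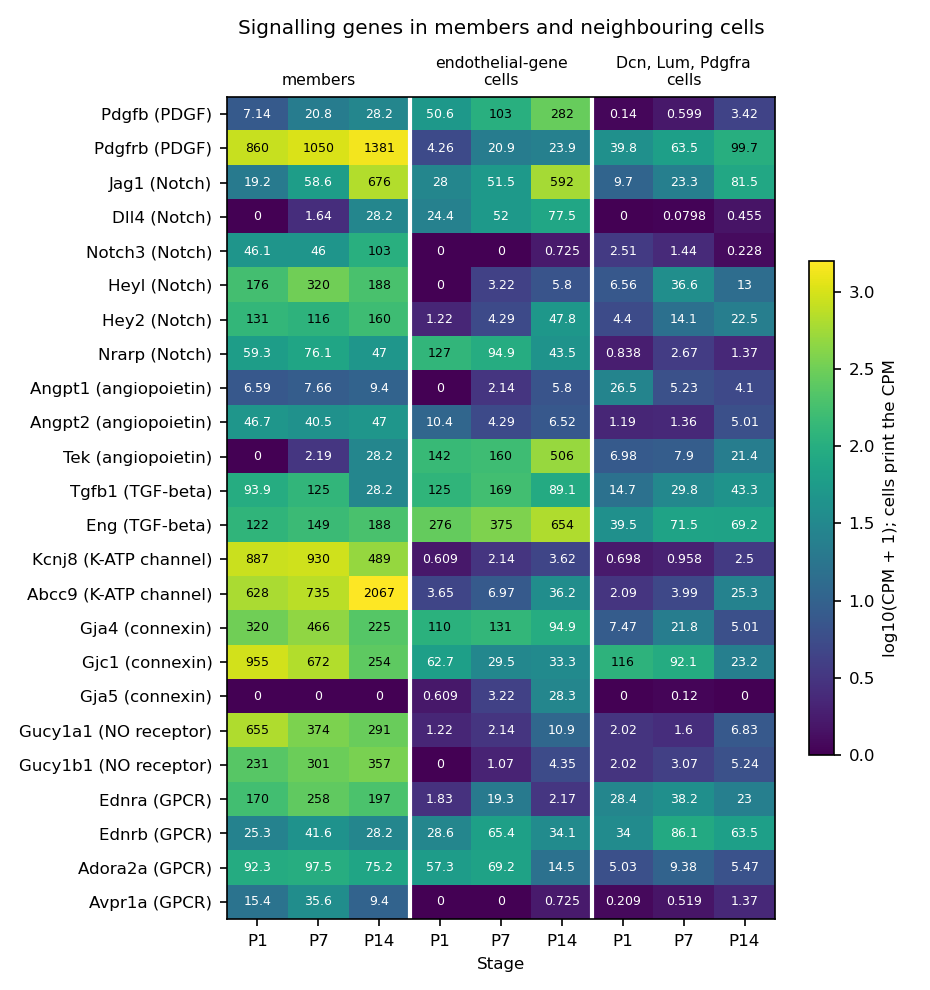
CPM of 24 signalling genes at P1, P7 and P14 in the members, in the cells chosen by endothelial genes and in the cells chosen by Dcn, Lum and Pdgfra, coloured by log10(CPM + 1) with the CPM printed in each cell. Pdgfb, Tek and Dll4 are highest in the endothelial cells, and Pdgfrb, Heyl and the guanylate cyclase genes in the members. Kcnj8 and Abcc9 are highest in the members too, which the choice of cells set in part in every group. Jag1 reaches 676 CPM in the members and 592 in the endothelial cells at P14.

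Basement membrane genes were prominent among the members. Of 18 counted, 9 were higher than in other cells (Agrn, Col4a1, Col4a2, Col4a5, Itga1, Itga7, Itgb1, Nid1 and Sparc) and Col15a1 was lower, with a median log2 ratio of 0.97. Over all genes counted, 8.8% were higher and 7.21% lower, with a median of 0.06. Col4a1, a type IV collagen chain, was at 3205 CPM at P1 (3123 to 3289), 1786 at P7 (1726 to 1849) and 2199 at P14 (1926 to 2499). Its partner chain Col4a2 was at 459 CPM at P1 (429 to 491), 98.0 at P7 (84.2 to 113) and 132 at P14 (71.9 to 221). Both chains were highest at P1. Mgp, the matrix Gla protein that inhibits calcification, was at 9967, 9477 and 4275 CPM against 736, 423 and 1569 in other cells. The interstitial matrix list was mixed, with Bgn, Col6a2, Igfbp7 and Mgp higher and 9 of 24 genes lower, Col1a1, Dcn and Lum among them. Of 4 caveola genes counted Cavin3 was higher and Cavin2 lower, of 14 immediate early genes 4 were higher and Klf4 lower, and none of 7 glycolysis genes and none of 8 proliferation genes was called.

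The members differed widely from each other in contractile genes. The UMIs of Acta2, Tagln and Cnn1 were summed per cell, with Cnn1 adding none. No such UMI was found in 181 members at P1 (57.1%), 161 at P7 (57.7%) and 50 at P14 (76.9%). The highest 10% of members, 32, 28 and 7 cells, held 75.6%, 79.6% and 86.3% of these UMIs, and the highest cells reached 242, 248 and 194 in every 10000 UMIs. The contractile UMIs of the members were therefore carried by a small set of cells at every stage. Acta2 was found in 117, 102 and 15 members, Tagln in 88, 62 and 11, and both in 69, 46 and 11. After thinning to 1000 UMIs, Acta2 was found in 20.5%, 22.2% and 23.8% of members, against 0%, 0% and 1.16% of the macrophage-gene cells, and before thinning in 36.9%, 36.6% and 23.1% of members. The intervals of the thinned shares were 16.2% to 25.4%, 17.4% to 27.6% and 12.1% to 39.5%, so no difference between stages was detectable at this depth.

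Members in the upper range of this sum (106, 93 and 15 cells, above 2.20 and 2.28 in every 10000 UMIs at P1 and P7 and above 0 at P14) were compared with those in which it was lowest (181, 161 and 50 cells, all with none). Acta2 and Tagln set the split and are not part of the result, and the other genes come from the same cells, so this too is a description. Further contractile genes were higher in the upper range, while most mural identity genes did not pass the fold. Of 3188 genes counted, 24 were higher in the upper range (0.753%) and 21 lower (0.659%). All 106, 93 and 15 upper cells had Rgs5. Of 20 contractile genes counted, 8 were higher in the upper range and none lower, with a median of 0.82 beside 0.01 over all genes. Myh11 was at 68.2 CPM in the upper range (54.2 to 84.8) and 1.89 in the lower (0.514 to 4.83), with 38, 18 and 25 UMIs against 4, 0 and 0 at P1, P7 and P14. Myl9, the regulatory myosin light chain, was at 3323 and 1212 CPM, Tpm1, a tropomyosin, at 950 and 242, and Actg2, the enteric smooth muscle actin, at 59.8 and 1.89. These genes were higher in the upper range in all 3 libraries. Map3k7cl, Mustn1, Arhgef7, Plac9, Rcan2 and Crip1 completed the 10 largest ratios, with log2 ratios of 2.54, 1.71, 1.40, 1.39, 1.35 and 1.26.

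The lower range was richer in Vtn, at 993 CPM against 477, which was the only called gene of 17 counted in the mural identity list. Igfbp5, an insulin-like growth factor binding protein, was at 482 CPM in the lower range and 146 in the upper, and Igfbp2 at 384 and 136. Slc1a3, a glutamate transporter, was at 79.6 and 15.2, and Postn, the matrix protein periostin, at 232 and 79.2. Cygb, Clu, Lum, Islr, Zdhhc1 and Ntm were also lower in the upper range, with log2 ratios between -1.46 and -1.05. Rgs5 (log2 ratio 0.36), Notch3 (0.67), Pdgfrb (-0.16), Kcnj8 (-0.38), Abcc9 (-0.47), Higd1b (-0.32) and Ndufa4l2 (0.21) were not called. None of 10 channel genes and none of 11 vasoactive genes was called either. Glial genes were counted as well, and 2 of 6 were higher in the lower range, but members with 5 or more glial UMIs were not more frequent there at every stage: they were 16.6% and 42.9% of the lower range and 23.6% and 35.5% of the upper at P1 and P7, and 12 of 50 and 6 of 15 cells at P14. Coch was at 142 CPM in the lower range and 17.7 in the upper, most of it at P14. The part of such RNA in the lower-range genes was not tested.

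**Figure D3:**
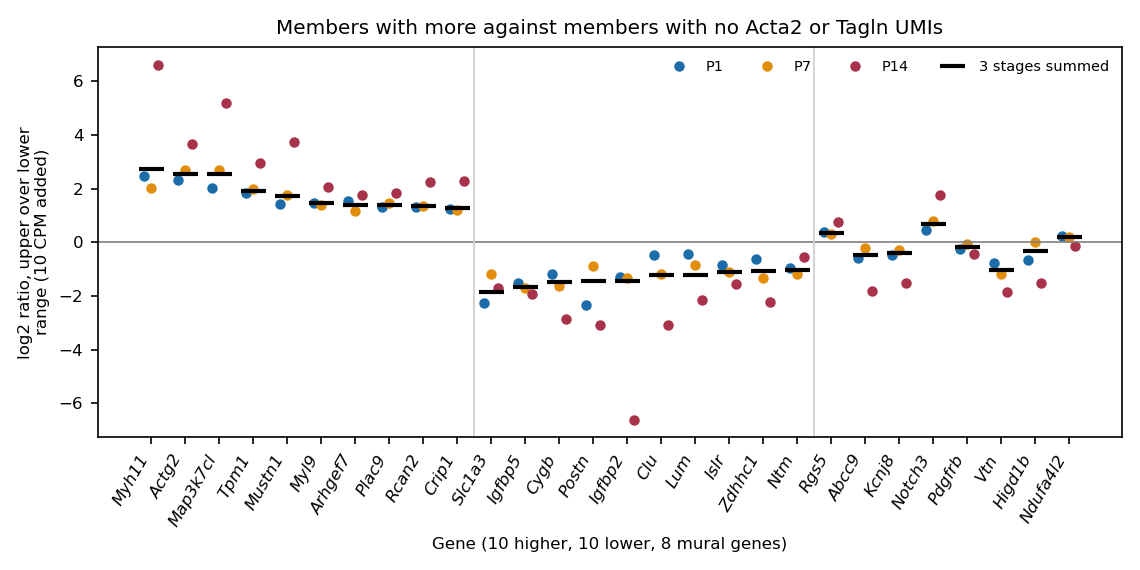
Log2 ratio of the upper to the lower contractile range of the members, with 10 CPM added to both, for the 20 genes with the largest ratios and 8 mural genes, with 1 point for each of P1, P7 and P14 and a dash for the stages summed. Myh11, Actg2 and Map3k7cl are far above 0 in each library, while Rgs5, Pdgfrb and Ndufa4l2 lie near 0.

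Between P1 and P7 the members kept their mural genes at similar levels while immediate early genes were lower at P7. Of 3318 genes counted, 74 were higher at P7 (2.23%) and 88 lower (2.65%), and the intervals of all of them were apart. Of these, 3 genes were higher (0.0904%) and 4 lower (0.121%) by at least 1 on the log2 scale beyond the ratio in all other cells. The libraries were close in depth here.

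Of 17 mural identity genes, Foxs1 and Art3 were called higher at P7 and none lower. None of 21 contractile genes was called, with a median log2 ratio of -0.24. Acta2 was at 515 CPM at P1 (482 to 549) and 651 at P7 (614 to 689), and Tagln at 452 (422 to 484) and 442 (412 to 474). None of 12 vasoactive, 8 TGF-beta and BMP, 4 PDGF and 6 glycolysis genes was called either. Atp1b2, Jag1 and Angptl4 were called higher, and Rbpj and Cav1 lower. Of 13 immediate early genes, which respond within minutes to stimuli and also to tissue dissociation, 7 were lower at P7: Atf3, Btg2, Egr1, Fos, Fosb, Jun and Junb. Fos was at 1259 CPM at P1 (1208 to 1312) and 354 at P7 (327 to 382), and the other cells had 1138 and 345. The list's median log2 ratio was -1.06 in the members and -0.86 in the other cells, so most of this difference was shared by the whole libraries. Fosb was the only gene of the list that exceeded the others by 1, with -1.94 in the members and -0.86 in the others.

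Clu, Clec2l and Tinagl1 had the largest ratios at P7 beyond the other cells. Clu, the chaperone clusterin, was at 13.2 CPM at P1 (8.45 to 19.6) and 118 at P7 (103 to 135), with a log2 ratio of 2.47 in the members and 1.05 in the others. Tinagl1, a basement membrane protein, was at 101 CPM (87.0 to 117) and 274 (251 to 299), with 1.36 in the members and -0.01 in the others. Clec2l, a C-type lectin, had 2.44 and 1.04. Ccn3 differed in sign, with 0.81 in the members and -0.42 in the others, as did Tppp3 with 0.59 and -0.80. Cxcl1, a chemokine, was at 137 CPM (121 to 155) and 14.8 (9.74 to 21.5), with -2.57 in the members and -1.21 in the others. Col4a2 had -2.12 and -1.01, and Col1a1 -1.91 and -0.66. Sparcl1, Fabp5, Phlda3, Pid1, Crip1 and Mcam were lower in the members with log2 ratios from -0.93 to -0.21 and higher in the others.

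From P7 to P14 many more genes passed the fold. In the members at P14, 9 of 22 contractile genes, 11 of 24 interstitial matrix genes and 6 of 7 glial genes were higher, as was the Notch ligand gene Jag1, and 7 of 8 cell division genes and Car2 were lower. Several of these counts depended on the choice of members, as given with each. Of 4072 genes counted, 937 were higher at P14 (23.0%) and 554 lower (13.6%), and with the requirement that intervals be apart the counts were 736 (18.1%) and 355 (8.72%). Of these genes, 297 were higher (7.29%) and 197 lower (4.84%) by at least 1 beyond the other cells. The P14 members were 65 cells of a shallow library, and 8 of them lacked mural genes outside the rule, as described above. Summed glial genes reached 9856 CPM in the P14 members, against 663 at P1 and 1197 at P7, and the other cells had 9640 at P14. The P14 cells with C1q genes and Csf1r had 5410 CPM, so glial RNA was found in cells that should lack it. Of the members 67, 117 and 18 had 5 or more glial UMIs at P1, P7 and P14. Summed fibroblast genes were at 3420, 4188 and 9320 CPM in the members, endothelial genes at 331, 403 and 1034, cartilage and bone genes at 323, 506 and 1212, and macrophage genes at 8.24, 143 and 263. At P14 all 4 counted genes of the cochlear epithelium and 3 of 4 of cartilage and bone were also called higher. The part of such RNA in the P14 results was not tested. Some of the results are also given without the members that had 5 or more glial UMIs.

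Of 22 contractile genes counted, 9 were higher at P14 (Acta2, Actn1, Csrp2, Mustn1, Mylk, Smtn, Sncg, Tagln and Vcl) and none lower, beside 23.0% and 13.6% of all genes, with a median of 0.88 in the members and 0.41 in the other cells. The intervals of all 9 were apart, and 6 exceeded the other cells by 1 or more, beside 7.29% of all genes. These intervals cover the sampling of molecules and not of cells. At P14, 7 of the 65 members held 86.3% of the summed Acta2, Tagln and Cnn1 UMIs, and 50 had none. For Acta2 and Tagln, separate intervals therefore cannot decide whether the stages differed. After thinning, Acta2 was found in 22.2% of members at P7 and 23.8% at P14, with overlapping intervals. Acta2 was at 651 CPM at P7 and 1625 at P14 (1392 to 1887), and Tagln at 442 and 1184 (986 to 1410). The log2 ratio of Acta2 was 1.31, 1.50 in the members with 3 or more UMIs of the 13 mural genes and 0.50 without the members with 5 or more glial UMIs. For Tagln the same values were 1.40, 1.59 and -0.29, so neither gene passed the fold without those members. Myh11, one of the rule's genes, had 3.62, 3.81 and 2.64. In the members with 3 or more mural UMIs 12 of 23 contractile genes were higher and none lower, beside 24.2% and 13.8% of all genes counted there. Without the glial members 7 of 24 were higher and 2 lower, beside 20.6% and 15.6%. With the endothelial limit lifted 5 of 23 were higher and 1 lower, beside 21.7% and 11.8%, which was no more than the background. Mylk, the myosin light chain kinase, was at 122 CPM at P7 (107 to 139) and 357 at P14 (253 to 490), and Vcl, vinculin, at 428 (398 to 459) and 1466 (1245 to 1715). Pln, phospholamban, had no UMI at P1 and P7 and 14 UMIs in 4 cells at P14, or 132 CPM (71.9 to 221). Without the members with 5 or more glial UMIs 1 UMI of Pln was left. Sncg, synuclein gamma, was at 43.3 CPM at P7 and 442 at P14, and its log2 ratio was 3.08, 3.28 and 2.43 in the 3 sets of members.

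The mural identity list was mixed, with Ebf1, Foxc1, Nr2f2 and Rgs4 higher, Ndufa4l2 lower and 12 of 17 genes not called, with a median of 0.20 beside 0.42 in the other cells. Ebf1 and Nr2f2 are transcription factors, the latter a venous one. Abcc9 had a log2 ratio of 1.48, and Rgs5 one of -1.02, Kcnj8 -0.91, Ndufa4l2 -1.28 and Gjc1 -1.37. Without the glial members these were 1.79, -0.86, -0.39, -0.89 and -1.07, so Rgs5 and Ndufa4l2 no longer passed the fold, and Rgs5 did not in the members with 3 or more mural UMIs either (-0.83). Jag1 passed the fold in the 3 sets of members, with log2 ratios of 3.32, 3.50 and 3.11.

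Of 24 interstitial matrix genes 11 were higher at P14, among them Dcn, Lum, Eln, Lox and Timp3, and Mgp and Postn were lower, beside 23.0% and 13.6% of all genes. Without the members with 5 or more glial UMIs 7 of 20 were higher and 3 lower, beside 20.6% and 15.6%. Lum was at 23.0 CPM at P7 (16.6 to 31.1) and 583 at P14 (447 to 747), and Dcn at 278 (254 to 303) and 1315 (1107 to 1552), while the other cells had 831 and 2655 at P14. In the members with 3 or more mural and under 5 glial UMIs the log2 ratio of Dcn was 0.93 in place of 2.20, below the fold. Apod, a lipocalin of fibroblasts and glia, was at 235 and 4416 CPM, below the 8773 of other cells. Coch was at 9.31 and 2697 CPM, and without the members below 3 mural UMIs its log2 ratio was 5.77 in place of 7.13. Rarres1, first by ratio at 5.47, had 3.08 without them. The 10 largest ratios also held Gpha2, Scd, Abca8a, S100a6 and Prrt1. Gpha2, a glycoprotein hormone subunit, rested on 1 UMI at P7 and 19 at P14, and its log2 ratio of 4.16 was -0.08 in the members with 3 or more mural UMIs.

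Of 18 basement membrane genes 6 were higher (Col18a1, Dag1, Itga6, Lama2, Lama5 and Lamb2) and Itga1 was lower, with a median of 0.77 in the members and 0.06 in the other cells, beside 23.0% higher and 13.6% lower of all genes. Without the members with 5 or more glial UMIs 2 of 17 were higher, or 11.8% beside 20.6% of all genes. In the TGF-beta and BMP list 8 of 15 were higher and Tgfb1 was lower, and 5 of the 8 had intervals apart. Without those members 6 of 13 were higher and 1 lower. Of 11 channel and pump genes 5 were higher, Atp1b2, Atp2a2, Itpr1 and Stim1 among them, and the connexin genes Gja4 and Gjc1 were lower. Gja4 had a log2 ratio of -1.01, and it no longer passed the fold in the members with 3 or more mural UMIs (-0.83) or without those with 5 or more glial UMIs (-0.82). Of 7 Notch genes Jag1 and Notch3 were higher, of 5 PDGF genes Nrp1 and Pdgfra, of 3 VEGF and angiopoietin genes Cxcl12 and Vegfa, and of 5 caveola genes Cav1, Cav2, Cavin1 and Cavin2, with none lower in these lists. None of the higher caveola genes or channel and pump genes exceeded the other cells by 1 or more. The caveola median was 1.61 in the members and 1.96 in the other cells, and the channel and pump median 0.57 and 0.45. The intervals of Notch3 overlapped, and Notch3 was one of the genes that chose the members. Of 13 immediate early genes 3 were higher and 2 lower. Of 14 vasoactive genes Ramp2 was higher and Ramp1 lower. Of 8 glycolysis and oxygen response genes, Eno1, Ldha, Ldhb and Pgk1 were lower and Bnip3 and Hif1a higher, with a median of -0.72 in the members and 0.25 in the other cells. Ldha, lactate dehydrogenase A, was at 330 CPM at P7 (304 to 357) and 132 at P14 (71.9 to 221).

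Car2, carbonic anhydrase 2, was at 233 CPM at P1 (211 to 256), 481 at P7 (450 to 514) and 28.2 at P14 (5.81 to 82.4), the last from 3 UMIs, while the other cells had 11.9, 45.6 and 112. At P14 the members were 17.1-fold below their P7 level, with an interval of 5.82 to 82.9. Tubb2b, a tubulin, had 434 UMIs at P7 and none at P14, and was at least 8.43-fold lower against a floor of 3 UMIs. Its level was 125 CPM at P7 and 14.7 at P14 in the other cells. Rala, Sapcd1 and Ap3s2 were also without a UMI at P14, and were at least 3.88-fold, 3.28-fold and 3.15-fold lower.

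Among the 8 cell division genes counted 7 were lower at P14, beside 13.6% of all genes, with a median of -2.15, or -1.97 with the 2 genes without a UMI at P14 set to the floor, and 0.28 in the other cells. Without the members with 5 or more glial UMIs no gene of the list reached the level to be counted at P7 or P14, and 6 of 7 were already lower at P7 than at P1, with a median of -1.55. The difference between P7 and P14 could therefore not be compared without those members. Cdk1 was at least 5.17-fold lower, and Ube2c 19.9-fold lower (3.54 to 787) on 1 UMI. The 10 genes of the list summed to 872 CPM at P1 (830 to 916), 840 at P7 (799 to 884) and 93.96 at P14 (45.1 to 173). Cells were called dividing when these genes gave 2 or more UMIs after thinning to 1000. The dividing share was 34 of 317 members at P1 (10.7%, interval 7.54 to 14.7), 25 of 275 at P7 (9.09%, 5.97 to 13.1) and 1 of 42 at P14 (2.38%, 0.0603 to 12.6). At P1 and P7, 97.8% and 96.7% of the list's UMIs lay in cells with 2 or more of them, which the interval of the summed level does not cover, and the shares at P7 and P14 overlapped within counting error. In the cells chosen by endothelial genes the share was 8.86%, 5.26% and 1.02%, and in all other cells 6.04%, 6.41% and 7.48%. The P14 value was thus the lowest in the members and in the endothelial cells, and the highest in the other cells.

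**Figure D4:**
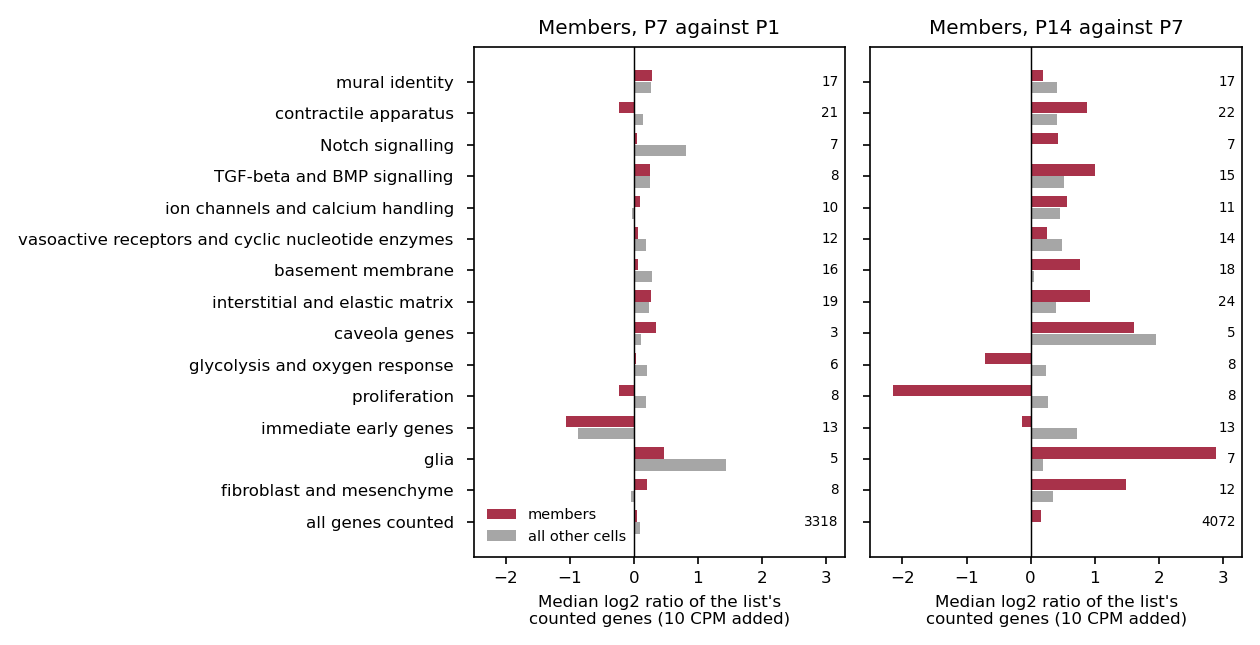
Median log2 ratio, with 10 CPM added, of the counted genes of each list between P7 and P1 and between P14 and P7, as bars for the members and for all other cells, with the number of genes counted at the right. Immediate early genes are below 0 in both groups of cells in the first comparison (-1.06 and -0.86), and proliferation (-2.15) and glia (2.89) stand farthest from 0 in the second.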

How the data were processed

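The authors dissociated pooled rat cochlear tissue at P1, P7 and P14, made 1 10x Genomics 3′ library per stage, and processed the reads with Cell Ranger (3.1.0 in the submitters' processing notes, which also name Seurat 3.1.1 and bcl2fastq) on the rat genome rn6. The deposited matrices hold raw UMI counts per gene and barcode with no normalization, and 34927 barcodes in all. Doublets were not stated to be removed.

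Barcodes with more than 500 and fewer than 5000 genes and under 25% mitochondrial UMIs were kept, which left 30641 cells. Rows with the same symbol were merged, from 32623 to 28723 features. Counts of the members were summed per stage and divided by their total (CPM). Intervals were exact (Poisson for levels, Clopper-Pearson for shares, conditional binomial for folds) at the 95% level. With 1 library per stage no test was possible. The members, the gene lists (16 pathway and 12 cell type lists, 425 of 439 genes in the matrices) and the comparisons were chosen with earlier results of these data known. Olfr78, Prkg1, Hspg2, Col6a3, Hspa1a, Gapdh, Pecam1, Ly6c1, Hba-a1, Hba1, Hba2, Dct, Cd79a and Ttn were not analysed here.

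Named were the rule, marker and list genes. Beside these came the 15 largest ratios against other cells that were higher in all 3 libraries. For the stages the 10 largest in each direction were named among genes with intervals apart and a ratio exceeding that of other cells by 1, where 5 and 10 genes met this at P7 and 253 and 135 at P14. For the contractile ranges the 10 largest in each direction with 1 sign in 3 libraries were named. Mitochondrial, ribosomal and haemoglobin genes were left out. Scrublet was run through scanpy 1.11.5, and other steps used Python 3.11.15, numpy 2.4.6, scipy 1.17.1, pandas 2.3.3 and matplotlib 3.10.9. Simulated counts with known ratios were used to test the procedure. 18 alternatives were run, 4 of them added later. Gene positions are not given, since the gene table at hand is of another assembly than rn6. Results for some genes are not reported here.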

Additional observations from a re-analysis of the deposited data

Results flagged for a closer look

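In 3 flagged genes the log2 ratio of members to other cells changed sign between stages, with a size of 1 or more on both sides. These differences between stages were not tested. Ccn3, given further on, changed sign too. Sncg had a log2 ratio of members to other cells of -2.62 at P1, -2.28 at P7 and 2.55 at P14, where the level in the members was 442 CPM and that in the other cells 66.9. Car2 had 3.47 at P1, 3.14 at P7 and -1.67 at P14, where the members held 3 UMIs of it. Ube2c, a cell division gene, had 1.16 at P1 and -2.86 at P14, where the members held 1 UMI. Outside the limits on genes and mitochondrial share, 5 barcodes at P1, 13 at P7 and 13 at P14 met the mural rule, and none of them entered the comparisons.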

How the results depend on the processing

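The share of members at P1, P7 and P14 was 2.48%, 2.22% and 1.23%. It was 1.97%, 1.95% and 0.871% with at least 30 rule UMIs in every 10000, 1.94%, 1.92% and 0.902% with the rule applied after thinning, and 1.21%, 1.14% and 0.871% without Rgs5 in the rule. Without the members marked by Scrublet it was 2.21% and 1.93% at P1 and P7, and with at least 5 rule UMIs 0.928% at P14. Of the 4 alternatives chosen after seeing the data, lifting the endothelial limit gave 2.71% at P14, and leaving out members with 5 or more glial UMIs gave 1.96%, 1.29% and 0.890%. Leaving out members with 2 or more UMIs of the cell division list before thinning gave 2.09% and 1.84% at P1 and P7. The requirement of 3 mural UMIs outside the rule moved no share. With no filter on low counts, fewer UMIs sufficed and more genes were called: 497 in place of 241 lower than in other cells, 172 and 138 in place of 74 and 88 at P7, 1848 and 1229 in place of 937 and 554 at P14, and 47 and 37 in place of 24 and 21 between the contractile ranges. With cells thinned to 1000 UMIs, the counts were 217 and 207 at P7, 321 higher at P14, and 78 and 114 between the ranges. With 1 CPM added, 131 genes were higher at P7, and with at least 50 UMIs 619 were higher at P14. Between the contractile ranges, 33, 32, 32 and 47 genes were lower with 30 rule UMIs in every 10000, with no endothelial UMI, with the rule after thinning and with the mean CPM of each cell, and 9 were higher without Rgs5 in the rule. For alternatives other than the absent filter and thinning, the cause was not tested. Gpha2 at P14 turned from 4.16 to -0.0771 with 5 rule UMIs, -0.0926 with 30 in every 10000 and -0.0769 with 3 mural UMIs outside the rule. Ube2c became 0.37 without the members with 2 or more UMIs of the cell division list. That list holds Ube2c itself, so this value was set in part by the choice of cells. Of the recomputed counts and shares 143 stayed within 1.5 times or 1 interval of their value and 37 did not, and of the recomputed ratios of single genes 951 stayed and 323 moved without a change of sign.

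No paired analysis was possible because each stage was 1 library. Depth limits the P14 values: 1 UMI among its 65 members was 9.40 CPM, and genes under 28.2 CPM could not be told from 0. The cells chosen by the rule share a library, so intervals say nothing of the spread between animals.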

Other observations

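Genes of the members at the edge of the lists gave a few further values. Rem1, a small GTPase of the RGK family, was at 238, 508 and 395 CPM in the members at P1, P7 and P14, and Sept4, a septin, at 764, 993 and 808. Col4a4, a type IV collagen chain, was at 286, 318 and 940 CPM. All were among the 15 largest ratios against other cells, with log2 ratios of 4.91, 4.13 and 4.20. Ccn3, a matrix signalling protein, was at 365, 646 and 348 CPM in the members and at 1788, 1333 and 183 in the other cells, so the members held less of it than other cells at P1 and P7 and more at P14.

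The 78 P14 cells with both mural and endothelial genes had Vtn at 830 CPM, Higd1b at 625, Acta2 at 657, Tek at 248, Jag1 at 745 and Cxcl12 at 1411, the chemokine that was at 169 in the P14 members. The number of cells chosen by endothelial genes was 160, 235 and 909 at P1, P7 and P14, while the members numbered 317, 279 and 65.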
